A study of Mus musculus with 4 samples.

Results

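T-bet and Eomes are transcription factors of the T-box family, encoded in the mouse by Tbx21 and Eomes. Accessible chromatin regions were taken as belonging to these genes when no other protein-coding gene had its span closer to the region than Tbx21 or Eomes. By this rule 42 of 91266 regions were included, 11 for Tbx21 and 31 for Eomes. The regions came from ATAC-seq, an assay that marks open chromatin by where a transposase can cut. Wild-type (WT) C57BL/6 natural killer (NK) cells from the spleen were cultured for 72 hours in a low dose (LD IL-15) or a high dose (HD IL-15) of interleukin-15, with 2 samples per dose. The labels give the doses by name only, name no other agent or allele, and do not say whether replicates came from separate animals. The deposited tables held 1 list of regions for the whole series and the authors' own lists of regions up or down between the doses. They held 0 columns of values per sample, so depth is unknown, no value has a replicate error, and the dose comparison itself could not be tested. The sources used here do not give the reference dose, so up and down are kept as the names of the lists.

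T-box factors bind DNA through a shared domain and can activate or repress genes. In NK cells, Eomes and T-bet act in overlapping ways: Eomes is needed for the maturation and identity of conventional NK cells, and T-bet for terminal maturation, exit from the bone marrow and interferon gamma production. Interleukin-15 signals through Janus kinases and the factor STAT5, and NK cells depend on it for survival.

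All 8 NK cell genes checked (Ncr1, Klrb1c, Klrk1, Klrd1, Nkg7, Prf1, Gzmb and Il2rb) had a region within the gene or within 1000 bp of it. The start lay in a region at all 6 of them whose start was in the promoter table, beside 52.3% of all 21262 starts. Among genes of other cells, 4 of 5 T cell, 2 of 4 B cell, 2 of 4 myeloid and 3 of 3 other innate lymphoid genes had a region in or near the gene. Of those with a start in the table, a region covered it at 1 of 4 T cell genes (Cd5), 0 of 2 B cell genes, 0 of 1 myeloid gene and 0 of 2 genes of other innate lymphoid cells. Accessibility at a gene is not its expression, and Eomes and Tbx21 themselves were not used as markers.

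The promoters are shown because the 2 genes differed in how much of this window was accessible. Sequences are the 250 bases before the gene's start, from RefSeq (GRCm38.p6), each written 5' to 3' on the gene's own strand. Capitals mark the bases inside the accessible region that covered the start. The Tbx21 window is chr11:97115332-97115581 (minus strand), and the Eomes window is chr9:118477939-118478188 (plus strand).
Tbx21: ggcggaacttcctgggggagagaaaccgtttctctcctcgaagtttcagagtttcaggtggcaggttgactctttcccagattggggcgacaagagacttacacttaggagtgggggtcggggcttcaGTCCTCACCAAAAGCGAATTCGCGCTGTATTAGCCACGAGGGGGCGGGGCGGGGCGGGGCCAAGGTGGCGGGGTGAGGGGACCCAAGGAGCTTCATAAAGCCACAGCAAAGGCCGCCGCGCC
Eomes: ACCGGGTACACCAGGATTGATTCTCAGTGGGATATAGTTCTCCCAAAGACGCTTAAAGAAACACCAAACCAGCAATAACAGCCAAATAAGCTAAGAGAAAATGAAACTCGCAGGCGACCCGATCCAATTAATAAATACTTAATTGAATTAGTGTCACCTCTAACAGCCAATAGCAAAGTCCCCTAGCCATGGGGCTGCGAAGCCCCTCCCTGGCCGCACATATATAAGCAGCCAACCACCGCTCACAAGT

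All 250 bases of the Eomes window lay in the region over its start, but only the 122 bases nearest the start did so at Tbx21. The Tbx21 window held 60.8% G and C and 16 CG dinucleotides. The Eomes window held 46.4% and 8. The medians over 21262 promoter windows of protein-coding genes were 55.6% and 10. Letters of known motifs were searched on both strands. The ETS core GGAA, which occurred in 93.2% of all windows of this length, had 3 matches at Tbx21 and 0 at Eomes. The matches began 247, 242 and 177 bases before the Tbx21 start, outside the accessible part, and the first of them overlapped a CG dinucleotide by 1 base. The other motifs had 0 matches at either gene. Of all windows, 11.1% held the T-box letters TCACAC and 12.4% held the RUNX letters TGTGGT. The STAT letters TTCNNNGAA were held by 6.58% of windows and the AP-1 letters TGANTCA by 6.13%. The GATA letters AGATAA occurred in 8.81%, and the TCF letters CTTTGA in 12.7%. Those searched for NFIL3, TTANNTAA, occurred in 4.96%. Such matches describe the letters in these windows and are not evidence of binding.

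At the start of Tbx21 the accessible region was narrow compared with other gene starts, and at the start of Eomes it was wide. The region covering the Tbx21 start was 221 bp wide (chromosome 11, 97115233 to 97115453). The one covering the Eomes start was 1766 bp wide (chromosome 9, 118477629 to 118479394). Over the 9211 regions that covered the start of any protein-coding gene, the median width was 970 bp (interquartile range 741 to 1230 bp). Of these regions, 1.12% were narrower than that of Tbx21 and 96.1% were narrower than that of Eomes. The Eomes start region was also wider than 99.4% of all 91266 regions. At Tbx21 a second narrow region, of 199 bp (chromosome 11, 97115899 to 97116097), lay 445 bp further upstream, so the width depends on where regions were divided. Counting all accessible bases within 1000 bp of the start instead, a choice made after the data were seen, Tbx21 had 420 bp and Eomes 1561 bp, against a median of 987 bp. By that measure 9.77% of 12648 starts with any accessible base had fewer than Tbx21, and 94.6% had fewer than Eomes. Neither start region was in the up or down list, which together held 5.61% of all regions. Listing was rare at starts in general, with 85 of the 9211 start regions listed (0.923%).

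**Figure D1:**
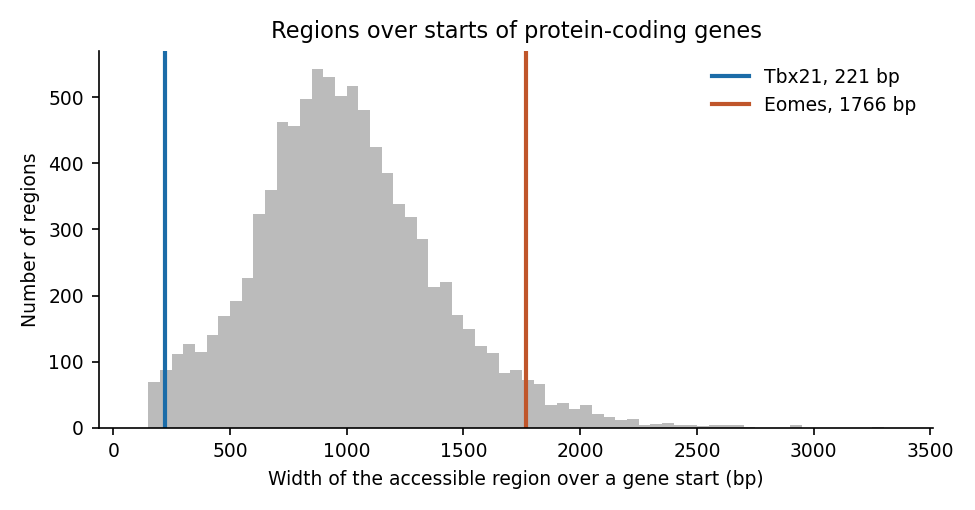
Widths in bp (horizontal axis) of the 9211 accessible regions that covered the start of a protein-coding gene, as numbers of regions per 50 bp class (vertical axis). The lines mark Tbx21 at 221 bp, in the low tail, and Eomes at 1766 bp, in the high tail.

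Tbx21 spans 17.3 kb on the minus strand of chromosome 11 (97098007 to 97115331). Its 11 regions lay in a compact stretch of 29.2 kb around and within the gene, at 3.77 regions per 10 kb. Besides the region over the start, 5 lay within the gene, 4 upstream and 1 beyond its end. Exons, introns and untranslated parts were not annotated here.

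Upstream of the Tbx21 start, after the 199 bp region at 568 bp, came a region of 625 bp at 2.81 kb (97118139 to 97118763). A pair followed at 8.06 kb (555 bp, 97123393 to 97123947) and 9.45 kb (424 bp, 97124777 to 97125200). Nothing further upstream was nearest to Tbx21, since the next region, of 579 bp, lay 11.6 kb from Tbx21 but 8.71 kb from Tbkbp1, its neighbour. Within the gene the regions lay 2.28 kb (595 bp), 5.26 kb (362 bp), 5.97 kb (318 bp), 10.7 kb (862 bp) and 13.2 kb (353 bp) from the start. The widest of the 11 was the fourth of these, at 97103730 to 97104591. Past the end of the gene, a region of 529 bp lay 1.47 kb away (97096012 to 97096540), and the next, 14.6 kb from Tbx21, was assigned to Osbpl7.

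Eomes spans only 7.95 kb on the plus strand of chromosome 9 (118478186 to 118486132), yet its regions reached over 148 kb, at 2.09 per 10 kb. Of the 31 regions, 24 were upstream, 1 covered the start, 2 lay within the gene and 4 lay beyond its end. The upstream regions held 12790 of the 17642 accessible bp. Only 2 of the 24 lay within 10 kb of the gene, 17 lay more than 50 kb away and 6 more than 100 kb away. The 2 genes thus differed in arrangement, with 6 of 11 regions (54.5%) overlapping the gene at Tbx21 and 3 of 31 (9.68%) at Eomes, against 61.0% of all regions overlapping their nearest gene. Tbx21's farthest region was 9.45 kb from the gene, and that of Eomes was 136 kb away.

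**Figure D2:**
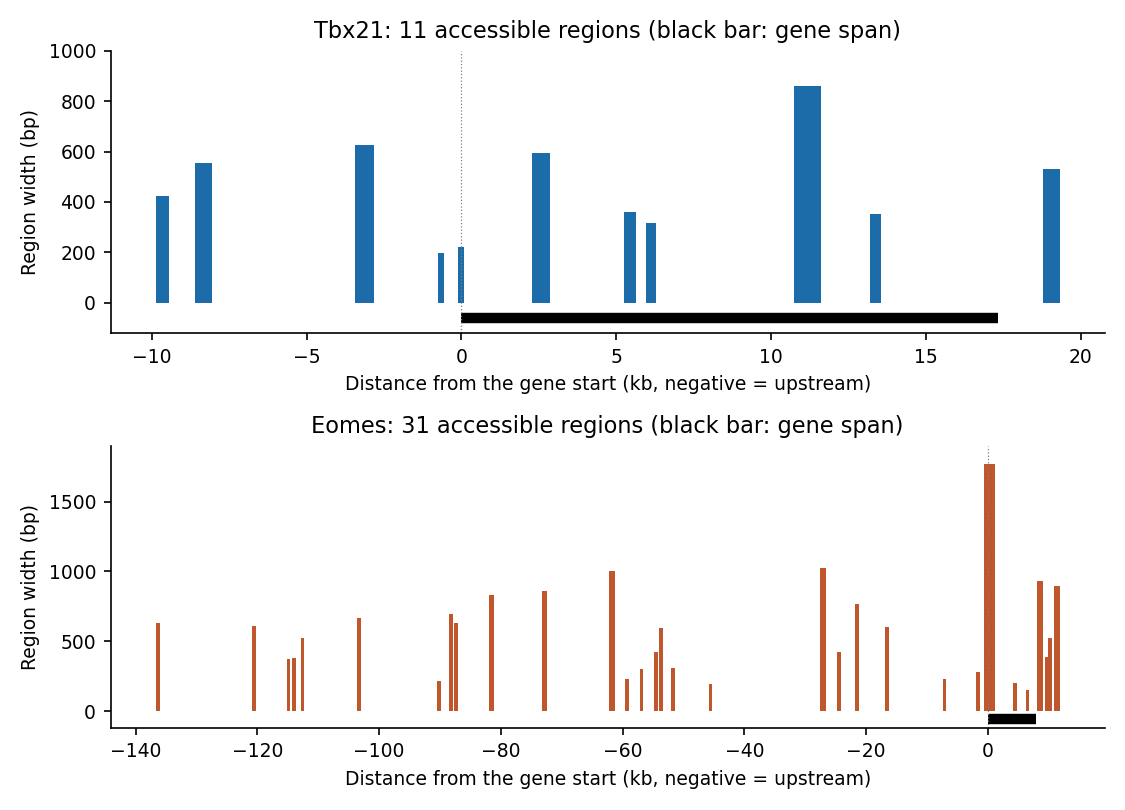
Regions of Tbx21 (upper panel) and Eomes (lower panel) by distance from the gene start in kb (horizontal axis, negative upstream) and width in bp (vertical axis), with the gene as a black bar. The 11 regions of Tbx21 surround and fill the gene, whereas 24 of the 31 regions of Eomes lie upstream, out to 136 kb. Panels differ in both scales, and the narrowest bars are drawn slightly wider than scale to stay visible.

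Joining Eomes regions less than 5 kb apart gave 12 groups, 7 of them a single region. The largest held 8 regions with 5135 accessible bp and ran from 1.90 kb upstream of the start to 11.8 kb downstream (118476291 to 118489988). Besides the start region it contained a region of 283 bp 1.62 kb upstream, the 2 regions within the gene, which were narrow (199 and 150 bp), and the 4 beyond its end (929, 390, 525 and 893 bp). The last of these ended the set, and the next region, of 253 bp, lay 14.9 kb from Eomes and 4.96 kb from Golga4.

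Next upstream was a single region of 229 bp at 7.15 kb. A group of 4 regions with 2814 accessible bp followed, 16.3 to 27.6 kb upstream (118450593 to 118461930). It included the widest upstream region, of 1026 bp, at 118450593 to 118451618. Beyond an interval of 18.1 kb, the longest between regions of Eomes, lay a region of 195 bp at 45.7 kb. A group of 6 regions with 2854 accessible bp lay 51.7 to 62.2 kb upstream (118415945 to 118426493) and included a region of 1000 bp. Single regions of 856 bp and 831 bp were found at 72.3 and 81.2 kb. Groups of 3 regions lay at 87.1 to 90.4 kb (1542 accessible bp) and at 112 to 115 kb (1275 accessible bp), with a single region of 668 bp between them at 103 kb. The farthest 2 regions, of 610 and 633 bp, lay at 120 and 136 kb. For comparison, joining Tbx21 regions by the same distance gave 2 groups, 1 of 10 regions over 23.4 kb and the single region past the gene's end.

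The far border of the Eomes set is fixed by the rule. The interval of 279 kb between Eomes and the next protein-coding gene upstream, the gene model LOC115486419, held 36 regions. The 24 nearer Eomes were assigned to it, and the first region outside, of 297 bp, lay 140 kb from Eomes and 138 kb from LOC115486419. All 36 were unlisted. Several long non-coding RNA genes lie in the same stretch. When genes of any biotype were allowed, only 2 of the 31 regions were still assigned to Eomes. Platr11 took 12, Gm33408 took 7, Gm33088 took 5, Gm33460 took 4 and 4933432G23Rik took 1. The gene Gm33408 (118447241 to 118478732) overlaps the Eomes start, so the wide start region covers parts of both genes. That region covers an end of each gene, so the 2 genes were tied. Its place among the 7 of Gm33408 is therefore arbitrary. Tbx21 kept all 11 of its regions under the same rule. Proximity does not show which gene a region acts on.

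In width, the regions of the 2 genes overlapped broadly. Those of Tbx21 ranged from 199 to 862 bp with a median of 424 bp, and those of Eomes from 150 to 1766 bp with a median of 525 bp. The median over all regions was 400 bp, and 6 of 11 regions of Tbx21 and 19 of 31 of Eomes exceeded it. Without the regions within 1000 bp of a gene end, the medians were 529 and 524 bp. Intervals between consecutive regions of the same gene had a median of 2.11 kb at Tbx21 (0.343 to 5.25 kb) and 2.08 kb at Eomes (0.131 to 18.1 kb). Over all 74652 intervals between consecutive regions assigned to 1 gene, the median was 5.49 kb. Of the intervals, 9 of 10 at Tbx21 and 19 of 30 at Eomes were under 5 kb, beside 47.2% of those 74652.

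Among the 16383 protein-coding genes that were nearest to at least 1 region, the median number of regions was 3. Eomes had more regions than 98.5% of them (252 genes, or 1.54%, Eomes included, had at least 31) and more accessible bp than 99.1%. For Tbx21, 2177 genes (13.3%) had at least as many, and its 5043 accessible bp exceeded those of 86.3% of genes. The interval to the next protein-coding gene upstream was 279 kb at Eomes and 20.8 kb at Tbx21. Its part in the number of regions was not tested.

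None of these regions was called different between the IL-15 doses. Over all 91266 regions the authors' deposited tables listed 5.61% as up or down, 4.21% as up and 1.40% as down. Of the 42 regions at the 2 genes, 0 were up and 0 were down. A count of 0 of 42 allows a share of up to 7.14% (3 counts of the total), which is above 5.61%, so a lower share than the background was not detectable with this number of regions. The limit is 27.3% for the 11 regions of Tbx21 and 9.68% for the 31 of Eomes. At the overall share, 2.36 listed regions would fall among 42. Widths made little difference, since in the same 10 width classes of all regions 7.45% were listed at the widths of Tbx21 and 5.95% at those of Eomes, or 2.66 regions over both genes. These limits cover counting error only, and neighbouring regions are not independent. Absence from the lists does not show equal accessibility at the 2 doses, because the threshold and the counts behind it are unknown.

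Genes with a similar number of regions gave a different background for each gene. Of 832 other protein-coding genes with 10 to 12 regions, 447 (53.7%) had no listed region, so that Tbx21 was in the majority class. The remaining 385 had between 1 and 6. Of 160 other genes with 28 to 34 regions, 30 (18.8%) had none, 47 (29.4%) had 1 and 83 (51.9%) had 2 or more, up to 7. Eomes was thus among the smaller class without a listed region. Taking each list alone, 68 of the 160 (42.5%) had no up region and 95 (59.4%) had no down region. For Tbx21 the corresponding shares were 62.9% and 88.5% of 832. Among the 21 other genes with exactly 31 regions, 2 (9.52%) had none listed. Of 128 genes within 25% of the number at Eomes that also had under 50% of their regions overlapping the gene, 20 (15.6%) had none, a comparison added after the data were seen. These are full counts over genes, with no test.

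**Figure D3:**
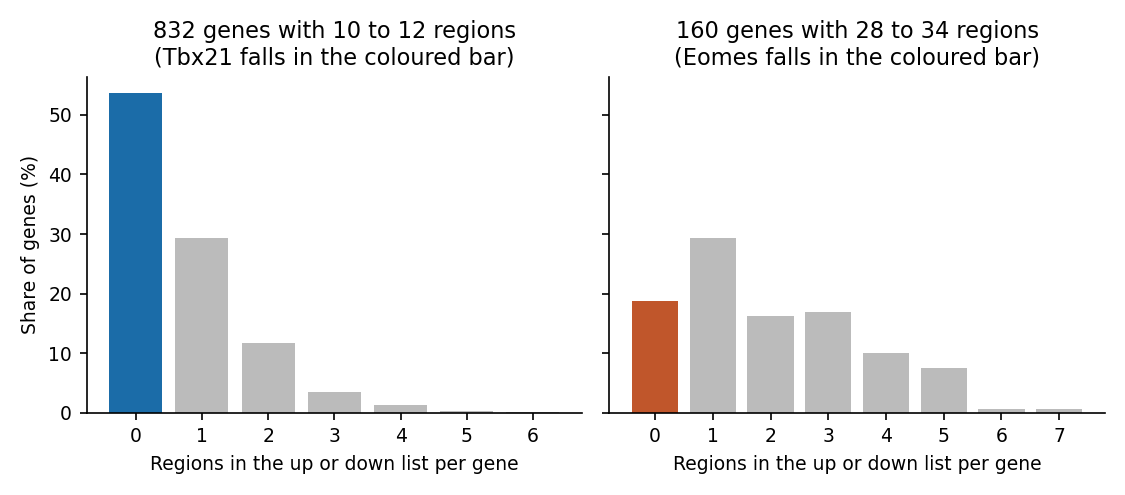
Share of genes in percent (vertical axis) by the number of their regions in the up or down list (horizontal axis), for the 832 genes with 10 to 12 regions (left) and the 160 genes with 28 to 34 regions (right). The coloured bars, 53.7% and 18.8%, hold the genes with 0 listed regions, the value of Tbx21 and of Eomes.

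The unlisted stretch extended well past both genes. Around Tbx21, 139 consecutive regions over 1090 kb, nearest to 31 genes, were in neither list. Such a run is long in number of regions: 2.79% of the 86146 unlisted regions lay in a run of at least 139, and the median unlisted region lay in a run of 34. By length, 31.0% of unlisted regions lay in a run at least as long. The run around Eomes held 78 regions over 756 kb, nearest to 7 genes, and 13.7% of unlisted regions lay in a run of at least that number, and 41.9% in a run at least as long.

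The listed regions nearest to Tbx21 were both in the down list. One lay 185 kb beyond the gene's end (474 bp, chromosome 11, 96912645 to 96913118, within Cdk5rap3), and the other 884 kb upstream (472 bp, 97999154 to 97999625), 1.88 kb from Cacnb1. The nearest up regions were 1190 kb downstream, within B4galnt2, and 1850 kb upstream, within Rara. Around Eomes the order was the opposite, with up regions nearest. These lay 232 kb downstream within the integrin gene Itga9 (301 bp, chromosome 9, 118718487 to 118718787) and 516 kb upstream within Zcwpw2 (671 bp, 117961955 to 117962625). The nearest down regions were 4590 kb downstream, within Zdhhc3, and 10300 kb upstream, within Bsn. Within 1500 kb of the Tbx21 start, 4 of 295 regions were down and 1 was up. Within the same distance of Eomes, 15 of 160 were up and 0 were down. On chromosome 11 as a whole 3.68% of regions were up and 0.711% down, and on chromosome 9 4.44% and 0.795%.

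**Figure D4:**
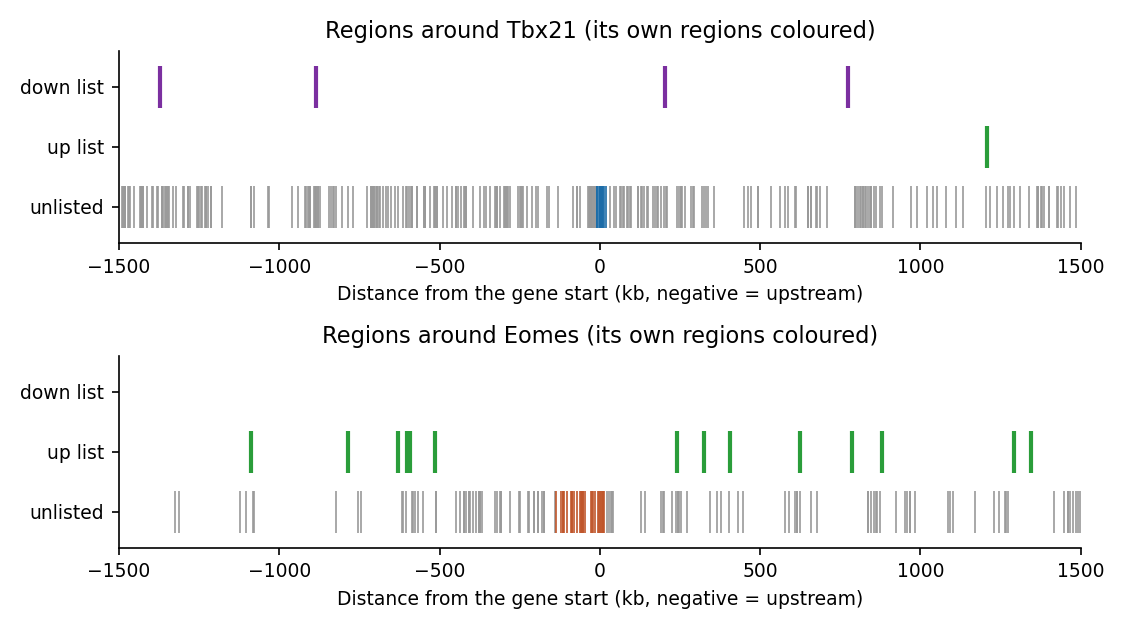
Accessible regions (vertical strokes) within 1500 kb of the start of Tbx21 (upper panel) and Eomes (lower panel) by distance in kb (horizontal axis, negative upstream), in rows for unlisted, up and down regions. Listed regions near Tbx21 are 4 down and 1 up, those near Eomes are 15 up and 0 down, and none belongs to either gene.

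Of the 3 protein-coding genes on either side of each gene, 1 in all had a listed region, beside 20.1% of all 16383 genes with a region. Next to Tbx21, Tbkbp1, which encodes an adaptor that binds the kinase TBK1, had 11 regions. Kpnb1, which encodes the nuclear import receptor importin beta, had 3 and Npepps had 4. On the other side Osbpl7 had 5, Mrpl10 had 1 and Lrrc46 had 1. None of these regions was listed. Next to Eomes, Golga4 had 5 regions, Ctdspl 1, LOC115486419 16, Cmc1 11 and Azi2 4, none listed. Itga9, which encodes an integrin alpha chain, had 3 of 20 regions in the up list.

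The remaining 15 genes of the T-box family, most of them known for roles in the embryo, each had fewer regions than Eomes. They had 70 in all, with a median of 4 per gene, and Tbx6 and Tbx10 had 0. Tbx3 had the most, 14, and Tbx19, known from the pituitary, had 9. Tbr1, Tbx4 and Tbx15 had 5 each, T had 4, Tbx18 had 3 and Tbx22 had 1, none of them listed. Only Tbx1 (1101 bp) and Mga (957 bp), whose product pairs with MAX, had a region over the start, of 11 whose start was in the table. Over all 21262 starts, 52.3% lay in a region. Up regions were found at 3 of the 13 genes that had a region, with 1 of 7 regions at Tbx2, 1 of 7 at Tbx5 and 1 of 2 at Tbx20. There were 0 down regions. Over all 16383 genes with a region, 2637 (16.1%) had an up region. The 3 of 70 listed amount to 4.29%, beside 5.61% of all regions.

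Factors that act on T-bet and Eomes or beside them in lymphocytes were next examined. Over 20 such factors, 15 of 677 regions (2.22%) were up and 29 (4.28%) were down, beside 4.21% up and 1.40% down over all regions. Together 6.5% were listed, beside 5.61% of all regions, and 8 of the 20 factors had none listed. Tox, which encodes an HMG-box factor needed for NK development, supplied 11 of the 44 listed regions, with 2 up and 9 down of 53. Without it, a count added after the data were seen, 33 of 624 regions (5.29%) were listed, 13 up and 20 down. None were listed at 79.9% of all 16383 genes, whose median was 3 regions, but at 18.8% of the genes with 28 to 34 regions given above. The median factor had 25.5 regions. STAT5, which interleukin-15 activates, is encoded by Stat5a, with 3 regions, and Stat5b, with 12. Neither had a listed region, nor did Stat4 (22 regions), which carries interleukin-12 signals, or Nfil3 (19 regions), an early NK lineage factor. Regions only in the down list were found at Id2 (3 of 77), an inhibitor of E proteins, and at Zeb2 (3 of 58), a repressor in late NK maturation. The same held for Irf2 (3 of 27), Klf2 (2 of 9), which controls lymphocyte traffic, Foxo1 (1 of 54) and Runx3 (1 of 40). Ets1 had 3 up and 2 down of 79, and Gata3 had 4 up and 2 down of 46. Prdm1, which encodes the repressor Blimp-1, had 3 up and 1 down of 44, Tcf7 had 1 up and 2 down of 24, and Runx1 had 2 of 67 up. The other factors with none listed were Cbfb (5 regions), Zeb1 (11), Smad4 (12) and Bcl11b (15).

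Of 19 genes taken here as depending on T-bet or Eomes in NK cells, 9 had no listed region. Dependence was not measured in these data and may not hold for every gene. Their median was 11 regions, and 53.7% of the genes with 10 to 12 regions had none listed, as had 79.9% of all genes. Of the 305 regions of these 19 genes, 8 (2.62%) were up and 19 (6.23%) were down, 8.85% together, beside 4.21% up, 1.40% down and 5.61% together over all regions. Without Ifng, which had the most listed regions, 21 of 264 (7.95%) were listed, 4 up and 17 down. Zeb2 and Prdm1 are in this list and in the previous one. Ifng, the interferon gamma gene, had 4 up and 2 down of 41. Regions only in the down list were found at Ncr1 (4 of 11), the granzyme A gene Gzma (3 of 6), the interleukin-7 receptor gene Il7r (2 of 4) and the interleukin-15 receptor gene Il2rb (1 of 12). Itga2, which encodes the integrin chain CD49b, had 1 up and 1 down of 19. S1pr5, which encodes the sphingosine 1-phosphate receptor of NK cell exit, had 1 of 4 regions down, and Tnfsf10, which encodes the death ligand TRAIL, had 1 of 15. Prf1 (6 regions), Gzmb (9), Cx3cr1 (6), Cxcr3 (4), Klrg1 (17), Itgam (16), Spn (8), Il12rb2 (15) and Il18rap (10) had none listed. Of the 17 genes of this list with a start in the table, all 17 had a region over it, as had 15 of 16 factors of the previous list. A region covered 52.3% of all 21262 starts. The lists were drawn up with earlier results of these data known, and their shares are descriptions.

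**Figure D5:**
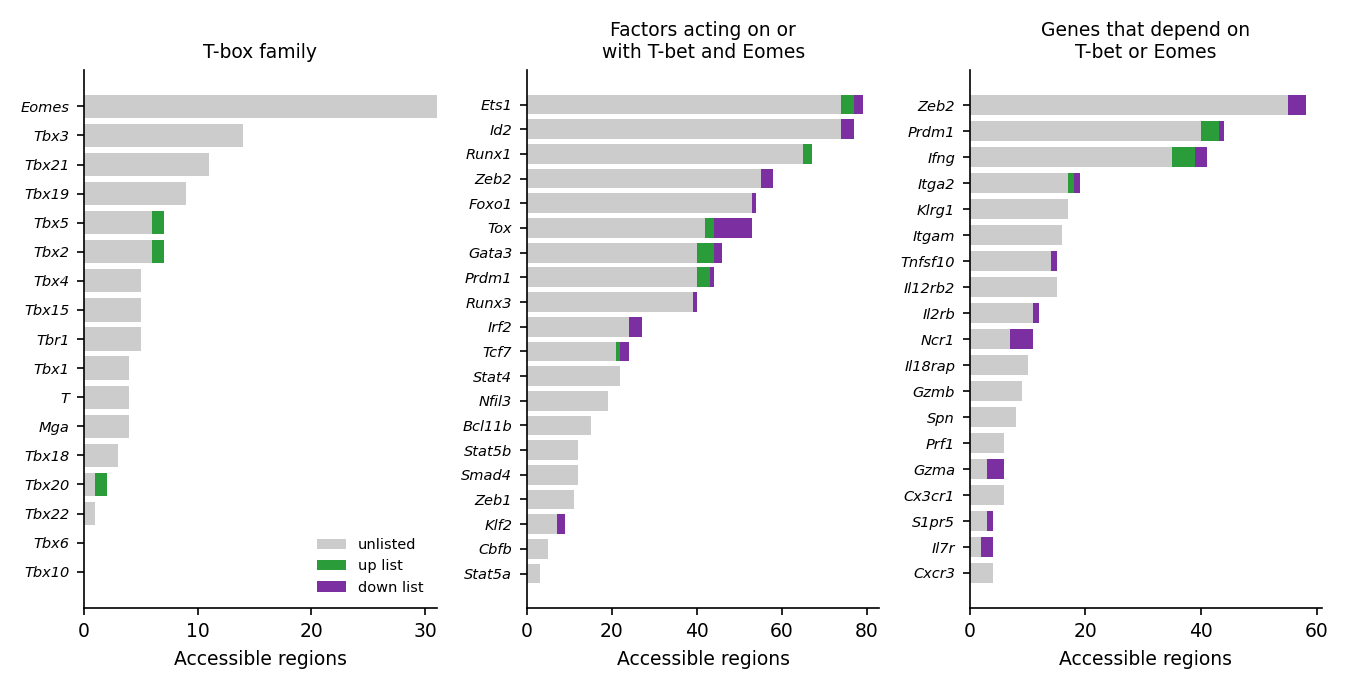
Number of accessible regions (horizontal axis) per gene (rows) for the T-box family, for factors acting on or with T-bet and Eomes and for genes taken as depending on them, divided into unlisted, up and down regions. Eomes has the most regions of its family with 31, and neither it nor Tbx21, with 11, has a coloured part.

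The genes of these lists nearest to each member in number of regions were found among 52 candidates, with ties going to the gene closest in accessible length. For Tbx21 they were Ncr1 (11 regions, 5.24 kb accessible), which encodes the activating receptor NKp46, Zeb1 (11 regions, 9.47 kb) and Il18rap (10 regions, 5.33 kb), beside 5.04 kb for Tbx21. Il18rap was preferred by length to Stat5b, Smad4 and Il2rb, which also differed from Tbx21 by 1 region. Of the 3 genes, Ncr1 had 4 down regions, and Zeb1 and Il18rap had none listed. For Eomes they were Irf2 (27 regions, 17.6 kb), Tcf7 (24 regions, 11.2 kb), which encodes TCF-1, and Runx3 (40 regions, 20.5 kb), beside 17.6 kb for Eomes. Runx3 was preferred by length to Stat4 (22 regions, 10.8 kb), which also differed from Eomes by 9 regions and had none listed. There were 3 down regions at Irf2, 1 up and 2 down at Tcf7, and 1 down at Runx3. Irf2, Tcf7 and Runx3 had larger shares of regions overlapping the gene, 18 of 27, 14 of 24 and 16 of 40, against 3 of 31 at Eomes. Over the lists such shares varied widely, for example 1 of 77 at Id2, 3 of 41 at Ifng and 22 of 22 at Stat4. A low share was thus not particular to Eomes.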

How the data were processed

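ATAC-seq regions of the 4 samples (2 per dose, grouped by title) were analysed as positions. The authors deposited a list of regions with widths in bp and lists of up and down regions, with no signal, score or count. The submitters' processing notes name BWA, ArchR, MACS2, HOMER 4.11.1 and mm10, without roles. Whether replicates were pooled, the differential test and its threshold are not given in the sources used here.

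Starts, 0-based in the full list, were raised by 1, and each listed region was then identical to one of the full list. Genes and starts came from RefSeq tables of GRCm38.p6, the assembly behind mm10. Of 21262 starts, 52.3% lay in a region, against 3.19% and 3.22% after shifts of 100 kb. Each region went to the nearest protein-coding gene by span, ties to the nearer end. Similar genes had a number of regions within 10%. Python 3.11.15, numpy 2.4.6 and pandas 2.3.3 were used, and the assignment was tested on simulated data. No test was made: regions of a gene are not replicates. Named were both genes, 3 neighbours on each side, the nearest listed regions, members of 3 gene lists and the 3 genes of those lists most alike in number of regions. One gene was removed from the list of factors for a reason unrelated to its values and is not reported here. Genes and lists were chosen with earlier results of these data known. Alternatives covered assignment, overlap, similarity and gene ends.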

Additional observations from a re-analysis of the deposited data

How the results depend on the processing

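No paired analysis was possible because the tables hold no values per sample, and for the same reason the dose comparison and leaving out replicates were not run. Of 36 alternatives, 22 stayed within the tolerance set for the value and 14 did not. The tolerance was 1.5 times for a count and the exact 95% interval for a share of similar genes or of listed regions. Any change in a median width or in a share of starts was counted as outside it, even one of 1 bp. The number of listed regions stayed 0 for both genes under every assignment tried and with an overlap of 1 bp. The number of regions at Tbx21, 11, became 27 within 50 kb and 37 within 100 kb of the gene, where regions nearer to other genes are included. At Eomes, 31 became 2 with genes of any biotype, where the start region, tied with Gm33408, was not counted. The number was 9 within 10 kb and 19 within 50 kb. The share of similar genes without a listed region, 53.7% for Tbx21, was 62.9% for the up list and 88.5% for the down list alone. For Eomes, 18.8% became 42.5% for up, 59.4% for down and 9.52% with exactly the same number of regions. Fewer listed regions are counted when 1 list is used. Without regions at gene ends the median width was 529 bp at Tbx21 and 524 bp at Eomes. By accessible bases within 1000 bp of the start, 9.77% of starts had less than Tbx21 and 94.6% less than Eomes. Depth could not be examined.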

Other observations

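Around Eomes, the stretch of chromosome 9 without any down region ran from 108145279 to 123077708, or 14.9 Mb, and held 821 regions, 60 of them up. Chromosome 9 had 38 down regions among 4778. Around Tbx21 the converse was seen over a shorter stretch: 3.06 Mb of chromosome 11 (95908253 to 98966680) held 320 regions with 0 up and 4 down. Chromosome 11 had 212 up regions among 5767. Both stretches were singled out because they surround the 2 genes, and neither was tested.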
